A study of Mus musculus with 9 samples.

Results

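The aminoacyl-tRNA synthetases are the enzymes that load each amino acid onto its own tRNA. Their 36 genes (20 cytosolic and 16 mitochondrial), of 24012 in the table, were followed in mouse pancreatic tumour cells taken from lungs. The members were chosen by symbol, as cytosolic enzymes and as mitochondrial enzymes whose names end in 2. The family itself was selected on the measured values of Farsb, Gars and Lars2 in these same libraries, so these 3 genes are described without a test. All 36 symbols were found and all 36 passed the filter on low values in each comparison, which was a level of 1 CPM (reads after each library is scaled to the same total) or more in 3 or more of the 6 libraries.

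Each enzyme spends ATP to activate its amino acid and then joins it to the end of the matching tRNA, which carries it to the ribosome. Cytosolic enzymes serve the main translation machinery, and several of them sit together in a multisynthetase complex. A separate set, encoded in the nucleus and imported, serves the ribosomes of the mitochondrion, while Gars and Kars each give an enzyme to both places. In mammals several cytosolic synthetase genes are targets of ATF4, the transcription factor of the amino acid response.

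The groups were DTC cells, taken by GFP after 5 days, and the mCherryHigh and mCherryLow cells, both sorted at 6 weeks, with 3 libraries in each. All groups shared the genotype SIRT6F/F/p48-Cre/p53F/+KrasL/+, in which p48-Cre acts in the pancreas, and came from lungs after tail vein injection of cells that express GFP and Gstt1-mCherry. The labels give no host strain, and they do not say whether libraries came from separate mice or whether the injected cells were a single line. The p-values therefore measure only the spread between these libraries, which may be technical. Libraries carry the numbers 1, 2 and 3 in DTC and 1, 5 and 6 in the other groups, and values of a group are given in that order.

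Library totals ran between 643748 reads in mCherryHigh 1 and 11861241 in mCherryLow 6, with 923988 to 2052623 in DTC. A count of 0 allows up to 3 reads, or 4.66 CPM in mCherryHigh 1, and such limits cover counting error only. DTC 3 stood apart: its 6 tumour epithelial markers summed to 366 CPM, against 5220 and 5881 in DTC 1 and 2, 2105 to 5923 in mCherryHigh and 1751 to 2528 in mCherryLow. Summed markers of macrophages and monocytes were 3631 to 8281 CPM in DTC, 207 to 620 in mCherryHigh and 201 to 397 in mCherryLow, and none of these 8 markers was at 0 in all libraries of a group. Summed markers of endothelium, 5 genes, were 109 to 303 CPM in DTC, 16.5 to 24.9 in mCherryHigh and 4.39 to 12.8 in mCherryLow. The 6 markers of leukocytes and lymphocytes summed to 327 to 1222 CPM in DTC, 76.1 to 170.3 in mCherryHigh and 87.4 to 152 in mCherryLow, with Cd3g at 0 in all mCherryHigh libraries. Markers of alveolar and club epithelium summed to 51.9 to 366 CPM in DTC, 3.11 to 30.8 in mCherryHigh and 3.41 to 11.3 in mCherryLow. Erythroid markers (2 genes) summed to 70.0 to 181 CPM in DTC, 4.08 to 29.5 in mCherryHigh and 2.91 to 15.6 in mCherryLow, and neutrophil markers (3 genes) to 22.8 to 95.5 CPM in DTC, 8.27 to 17.5 in mCherryHigh and 3.47 to 9.36 in mCherryLow. Fibroblast and pericyte markers (4 genes) summed to 65.8 to 214 CPM in DTC, 71.5 to 109 in mCherryHigh and 30.1 to 70.0 in mCherryLow. Within DTC, the sums for macrophages and monocytes, leukocytes and lymphocytes, endothelium and erythroid cells were all highest in DTC 3. Those for neutrophils and for alveolar and club epithelium were highest in DTC 2, and that for fibroblasts and pericytes in DTC 1. The part of these other cells in the DTC results was not tested. These are bulk libraries, in which fewer cells of a type and less RNA per cell cannot be told apart.

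RefSeq promoters, 250 bases before to 50 bases after the start site in GRCm38.p6, matched 27 members, 13 cytosolic and 14 mitochondrial. The core of the C/EBP-ATF response element, TGATGNAA on either strand, occurred in the promoters of 5 of the 13 cytosolic genes (Aars, Gars, Iars, Tars and Yars, 38.5%) and in 0 of the 14 mitochondrial genes, against 3.97% of all 32851 promoters. The E-box CACGTG, which reads the same on both strands, occurred in 4 cytosolic promoters (Aars, Farsb, Iars and Tars, 30.8%) and in 1 mitochondrial promoter (Ears2, 7.14%), against 7.15% of all promoters. A response element core of each of the 5 genes is printed here with 10 bases on either side, read 5′ to 3′ on the strand that carries the motif, because among the matched members the motif occurred in cytosolic promoters alone. Capitals mark the motif.
Aars, chr8:111033841-111033868, minus strand: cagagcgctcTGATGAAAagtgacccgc
Gars, chr6:55037961-55037988, minus strand: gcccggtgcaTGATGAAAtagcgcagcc
Iars, chr13:49682127-49682154, minus strand: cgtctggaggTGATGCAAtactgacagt
Tars, chr15:11399656-11399683, plus strand: gctaaccagcTGATGCAAcgggactcct
Yars, chr4:129189896-129189923, plus strand: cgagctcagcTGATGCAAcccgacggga

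The Farsb promoter is shown in full because Farsb differed most between mCherryHigh and mCherryLow among the members. It holds no response element core, and its E-box, in capitals, begins at position -39 from the start site. The sequence lies at chr1:78488848-78489147 and is read on the minus strand, which is the strand of the gene.
Farsb: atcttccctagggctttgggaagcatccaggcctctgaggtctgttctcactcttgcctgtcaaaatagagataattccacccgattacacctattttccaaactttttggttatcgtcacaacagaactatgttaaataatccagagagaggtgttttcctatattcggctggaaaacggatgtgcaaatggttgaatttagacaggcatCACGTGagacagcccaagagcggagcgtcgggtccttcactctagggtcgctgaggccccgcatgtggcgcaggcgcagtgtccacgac

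Summed over genes, Lars2 left out, both compartments had their highest mean in mCherryLow cells. The 20 cytosolic genes summed to 2188 ± 1113 CPM in DTC, 3135 ± 710.0 in mCherryHigh and 4882 ± 1108 in mCherryLow (SD, n = 3 each). The highest DTC sum (3299 CPM) and the highest mCherryHigh sum (3870) both lay under the lowest mCherryLow sum (3979). These sums include Farsb and Gars, on which the family was selected. Farsb and Gars had 1.55 and 208 CPM in mCherryHigh 1, the highest of its group, and 217 and 428 CPM in mCherryLow 6, the lowest. Without them mCherryHigh and mCherryLow overlap, so nothing is read from that separation. The 15 mitochondrial genes other than Lars2 summed to 443 ± 86.0 CPM in DTC, 398 ± 53.5 in mCherryHigh and 609.5 ± 143 in mCherryLow. Here the DTC sums, 348.5 to 516 CPM, overlapped the mCherryLow sums, 452 to 730.0 CPM, and the mCherryHigh sums, 336 to 429 CPM, did not. The ratio of the cytosolic to the mitochondrial sum was 4.73 ± 1.66 in DTC, 7.84 ± 1.03 in mCherryHigh and 8.08 ± 0.93 in mCherryLow, and all 3 DTC ratios, 3.08 to 6.39, lay under every other library. The summed cytosolic level in DTC ran with the tumour markers, at 1073 CPM in DTC 3 against 2193 and 3299 in DTC 1 and 2. The 3 markers of alveolar and club epithelium had the same order, at 51.9 CPM in DTC 3 against 86.0 and 366 in DTC 1 and 2. Macrophage and monocyte markers had the reverse order, at 8281 CPM in DTC 3 against 4268 and 3631 in DTC 1 and 2. So did the markers of leukocytes and lymphocytes and of endothelium.

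**Figure D1:**
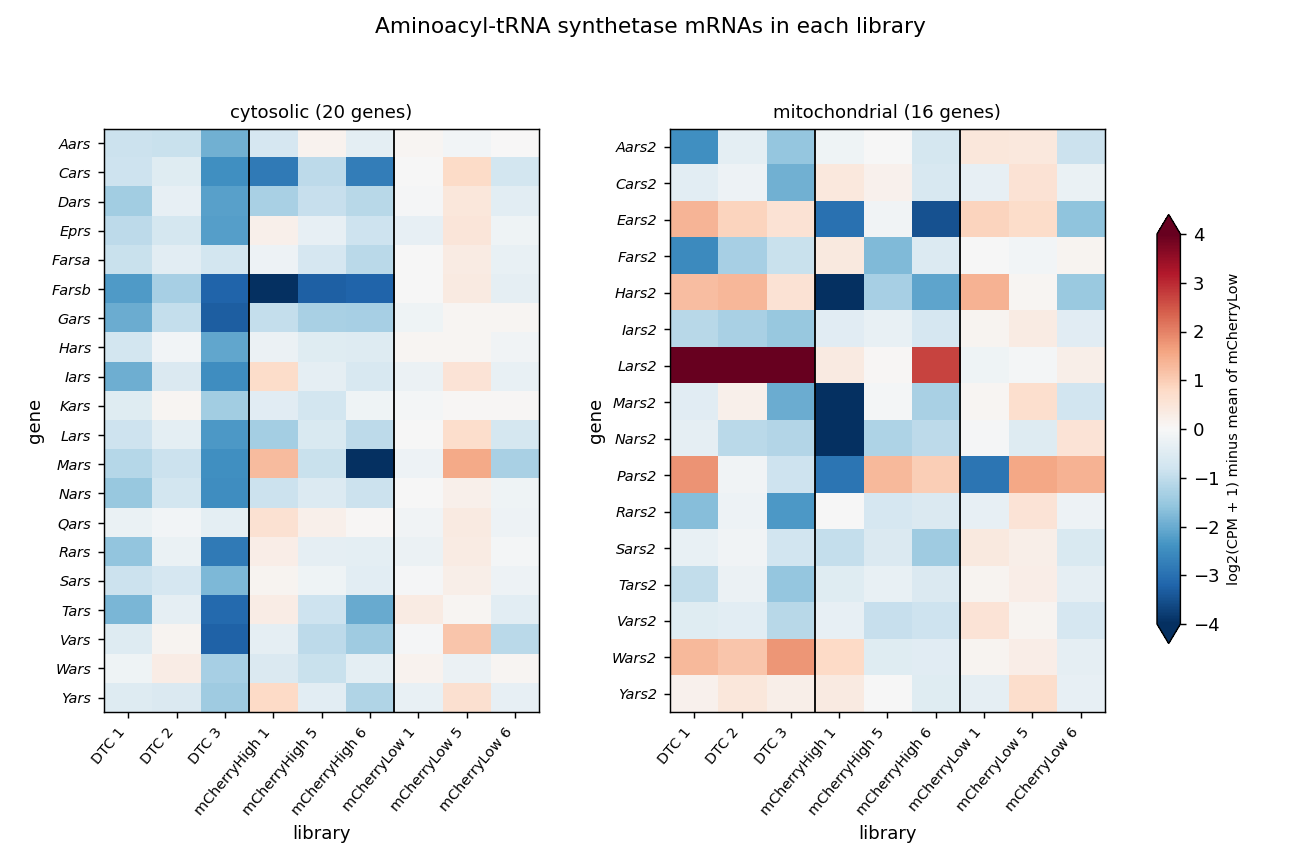
Each row is a synthetase gene and each column a library, and colour gives log2(CPM + 1) minus the mean of the 3 mCherryLow libraries, with colours capped at 4 in either direction. The DTC columns are mostly blue for cytosolic genes and deepest in DTC 3, Farsb is deep blue in the mCherryHigh columns, and Lars2 is dark red in all DTC columns.

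Per kilobase of transcript, a scale that lets genes be compared with each other, the cytosolic enzyme was above the mitochondrial enzyme for the same amino acid in most pairs. By group means this held in 14 of 14 pairs without Lars2 in DTC, in 13 of 14 in mCherryHigh and in 14 of 14 in mCherryLow, with Cars against Cars2 in mCherryHigh the exception. By single libraries it held in 13, 14 and 10 of 14 pairs in DTC, 13, 14 and 12 in mCherryHigh, and 14 in each mCherryLow library. The pairs of DTC 3 in which it did not hold were those for isoleucine, threonine, valine and tyrosine. The median ratio over the 15 pairs, Lars against Lars2 included, was 3.66 in DTC, 7.94 in mCherryHigh and 7.25 in mCherryLow. Lars2 led in DTC at 8082 CPM per kb, and its library values did not overlap those of the next gene, Nars, at a mean of 71.2. Lars2 also led in mCherryHigh (318.5 CPM per kb, ahead of Nars at 113), though without mCherryHigh 6 the means were 127 and 117. Nars led in mCherryLow at 191 CPM per kb, ahead of Gars at 171 and Farsb at 139. Mars2 was the lowest in all groups, at 1.25, 0.790 and 1.93 CPM per kb in DTC, mCherryHigh and mCherryLow. Apart from Lars2 in DTC, no neighbours in these orders were separated beyond the spread of their libraries.

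Farsb, the beta subunit of the cytosolic phenylalanyl enzyme, was the member most reduced in mCherryHigh cells. It had 56.3, 109 and 29.2 CPM in the DTC libraries, 1.55, 28.0 and 28.9 CPM in the mCherryHigh libraries, and 273, 359.6 and 217 CPM in the mCherryLow libraries. Every DTC library lay above every mCherryHigh library and under every mCherryLow library. The values of DTC 3 and mCherryHigh 6 lay within counting error of each other. Their 95% exact Poisson intervals were 19.3 to 42.5 CPM in DTC 3, from 27 reads, and 25.7 to 32.5 CPM in mCherryHigh 6. The lowest value, in mCherryHigh 1, rests on 1 read, with a 95% exact Poisson interval of 0.0393 to 8.66 CPM, while mCherryHigh 5 and 6 hold 274 and 283 reads. The mean level was 14.5-fold lower in mCherryHigh than in mCherryLow and 4.36-fold lower in DTC than in mCherryLow. Differences of mean log2(CPM + 1), another measure than these ratios of mean CPM, were -4.42 ± 0.90 and -2.27 ± 0.46 (SE). On that scale DTC stood 2.14 ± 0.88 above mCherryHigh. Without mCherryHigh 1 the difference of mCherryHigh from mCherryLow was -3.24 and that of DTC from mCherryHigh 0.97, and without mCherryHigh 6 they were -5.02 and 2.74. Farsb shares 7.28% of its 50-base transcript windows with other annotated transcripts, mostly Sgpp2, so its counts carry some uncertainty.

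The alpha subunit, Farsa, which pairs with Farsb in the active enzyme, differed less. Its levels were 107, 148 and 119 CPM in the DTC libraries, 172, 125 and 94.0 CPM in the mCherryHigh libraries, and 195, 247 and 162 CPM in the mCherryLow libraries. All DTC values lay under all mCherryLow values, and the mCherryHigh values overlapped both. The log2 difference was -0.68 ± 0.34 for DTC against mCherryLow (limma adjusted p = 0.124) and -0.65 ± 0.30 for mCherryHigh against mCherryLow (adjusted p = 0.557), and neither passed by limma. Against mCherryLow, Farsa was called lower in DTC by edgeR, by DESeq2 and with median-of-ratios scaling, in 3 of 17 alternatives (adjusted p between 0.0151 and 0.522). The ratio of Farsb to Farsa per kb was 0.452 ± 0.221 in DTC, 0.162 ± 0.138 in mCherryHigh and 1.25 ± 0.0515 in mCherryLow (SD, n = 3 each). It lay between 1.20 and 1.30 in the mCherryLow libraries, and between 0.00808 and 0.661 in the other 6 libraries. The beta subunit mRNA was above the alpha subunit mRNA per length in every mCherryLow library and under it in every other library.

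**Figure D2:**
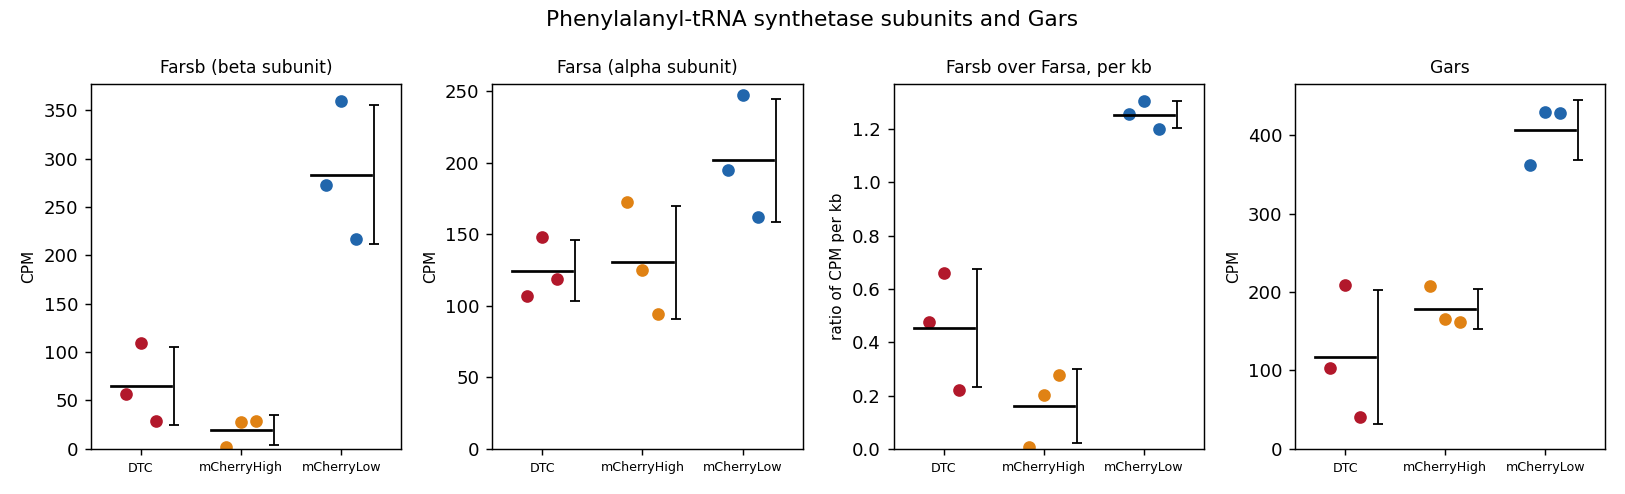
CPM of Farsb, Farsa and Gars and the per-kb ratio of Farsb to Farsa in each library (points), with the group mean (line) and SD (bar, n = 3). The mCherryLow ratios sit between 1.20 and 1.30, above all other libraries, and Farsa differs less than Farsb.

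Gars, the glycyl enzyme of cytosol and mitochondrion, was highest in mCherryLow. It had 103, 208.5 and 40.0 CPM in the DTC libraries, 208, 166 and 162 CPM in the mCherryHigh libraries, and 362, 430.0 and 428 CPM in the mCherryLow libraries. All 6 DTC and mCherryHigh values lay under all mCherryLow values, while DTC and mCherryHigh overlapped. The log2 difference from mCherryLow was -2.08 ± 0.50 in DTC and -1.19 ± 0.21 in mCherryHigh. The mean level was 3.47-fold lower in DTC and 2.28-fold lower in mCherryHigh than in mCherryLow.

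Lars2, the mitochondrial leucyl enzyme, went the other way and by far more than any other member. It had 35119, 16373 and 42916 CPM in the DTC libraries, 548, 438 and 2734 CPM in the mCherryHigh libraries, and 377, 400.5 and 502 CPM in the mCherryLow libraries. Every DTC library was above every other library, and mCherryHigh 6 was the highest of the 6-week libraries. Lars2 took 3.51, 1.64 and 4.29% of all reads in DTC 1, 2 and 3, and 0.0377 to 0.273% elsewhere. The log2 difference was 6.10 ± 0.41 for DTC against mCherryLow, 5.06 ± 0.66 for DTC against mCherryHigh and 1.04 ± 0.63 for mCherryHigh against mCherryLow. Without mCherryHigh 6 the last was 0.21, and that of DTC against mCherryHigh was 5.89.

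The predicted gene Gm10800 moved with Lars2 between libraries, at 70672, 15672 and 91409 CPM in DTC, 1501, 614 and 2310 CPM in mCherryHigh and 779.5, 670.0 and 675 CPM in mCherryLow. Its order over the DTC libraries and its highest 6-week library, mCherryHigh 6, were those of Lars2. Gm10801, another predicted gene, had 12131, 2675 and 17120 CPM in DTC, 511, 218 and 809 CPM in mCherryHigh and 287, 232 and 233 CPM in mCherryLow. The 3894-base main transcript of Lars2, whose coding part ends at base 2905, shares runs of 20 bases with the predicted genes AA474408 (59 start positions) and Gm15564 (33 start positions), all past the coding part, and none with Gm10800, Gm10801 or the mitochondrial ribosomal RNAs. Gm15564 had 359 CPM in mCherryHigh 6 and 33.6 to 88.2 CPM in all other libraries. Whether the reads counted as Lars2 came from Lars2 mRNA was not tested. Lars2, Gm10800, Gm10801 and Malat1 together took 4.36 to 16.3% of DTC reads and 0.491 to 1.60% elsewhere, and CPM of all other genes are scaled to totals that include them.

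**Figure D3:**
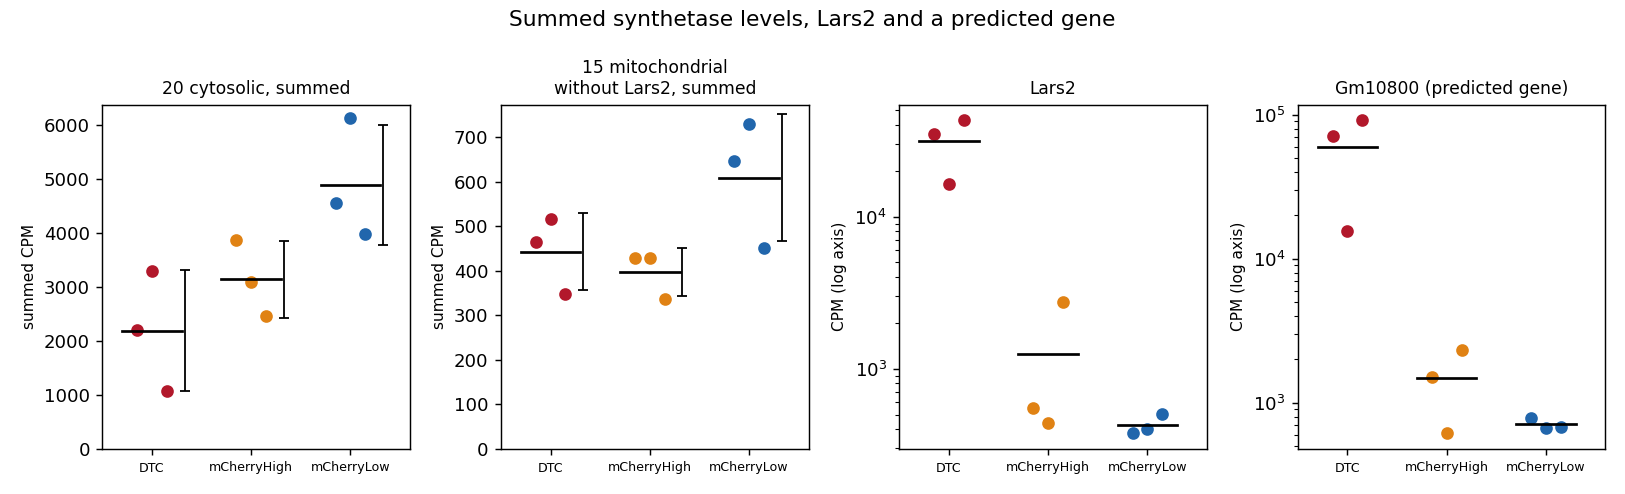
Summed CPM of the 20 cytosolic genes and of the 15 mitochondrial genes other than Lars2, and CPM of Lars2 and Gm10800 on log axes, in each library (points) with the group mean (line) and, on the linear axes, the SD (bar, n = 3). Cytosolic sums, with Farsb and Gars included, are lower in DTC and mCherryHigh than in mCherryLow, and Lars2 and Gm10800 are highest in the same DTC libraries.

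mCherryHigh was set against mCherryLow to ask how the sorted populations of established lung tumours differ. Of the 36 members, 34 had a lower mean log2(CPM + 1) in mCherryHigh, 19 of 20 cytosolic and 15 of 16 mitochondrial, while 43.6% of all genes tested did. Qars, the glutaminyl enzyme (0.29 ± 0.29), and Lars2 were the exceptions. The median log2 difference was -0.63 over cytosolic members and -0.47 over mitochondrial members, beside 0.09 over all 15437 genes tested. In 9 members all mCherryHigh values lay under all mCherryLow values (Gars, Farsb, Dars, Cars, Nars, Wars, Hars, Kars and Nars2), and in 0 all lay above. Over all genes such separation was found for 5.78% in the lower direction and 10.2% in the higher. Since the family was selected on this contrast among others, these counts are a description.

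No single member passed the test. By limma with Benjamini-Hochberg adjustment over all genes, 0 of 15437 genes (0.0%) were called, 1448 had an unadjusted p under 0.05, and the smallest adjusted p was 0.444. By edgeR on the recovered reads 0 genes were called, with 1221 at an unadjusted p under 0.05. By DESeq2 0.641% of genes were called lower and 0.317% higher. Of the 33 members other than Farsb, Gars and Lars2, 0 were called by any of the 3 tools.

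Cysteinyl Cars and methionyl Mars had the largest cytosolic differences after Farsb. Cars had 24.9, 86.9 and 25.9 CPM in the mCherryHigh libraries, against 178, 312 and 108 CPM in the mCherryLow libraries, a log2 difference of -2.22 ± 0.57 (limma adjusted p = 0.444). Its groups did not overlap, and in DTC it had 102, 131 and 32.5 CPM. Mars had 334, 74.6 and 5.01 CPM in mCherryHigh and 122, 399 and 55.7 CPM in mCherryLow, with overlap and a log2 difference of -1.40 ± 1.38 (adjusted p = 0.808) whose sign turned in 2 of 20 alternatives.

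Among mitochondrial members the largest differences were in genes of few reads. Histidyl Hars2 had 0, 9.49 and 5.01 CPM in mCherryHigh and 67.8, 26.6 and 8.35 CPM in mCherryLow, with overlap at the low end and a log2 difference of -2.71 ± 1.05 (limma adjusted p = 0.510). Asparaginyl Nars2 had 0, 15.7 and 17.9 CPM in mCherryHigh and 37.1, 26.3 and 56.6 CPM in mCherryLow, without overlap, and a difference of -2.52 ± 1.10 (adjusted p = 0.539). Glutamyl Ears2 had 1.55, 17.4 and 0.818 CPM in mCherryHigh and 36.1, 32.3 and 5.65 CPM in mCherryLow, with overlap and a difference of -2.20 ± 1.05 (adjusted p = 0.558). In mCherryHigh 1, the shallowest library, 4 members were at 0 reads (Hars2, Mars2, Nars2 and Pars2), and in mCherryLow 1 Pars2 was.

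The sample codes in the labels put mCherryHigh 1 and mCherryLow 1 in one series, mCherryHigh 5, mCherryLow 5 and mCherryLow 6 in another, and mCherryHigh 6 in a series alone. Within the first, 13 cytosolic members were lower and 7 higher in mCherryHigh, with a median difference of -0.31. Within the second, 18 were lower and 2 higher, with a median of -0.64. Mitochondrial members were 9 lower and 6 higher in the first series (median -0.58) and 13 lower and 3 higher in the second (median -0.25). Each of these rests on 1 mCherryHigh library.

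DTC was set against mCherryLow to compare cells at 5 days with the mCherryLow cells of 6 weeks. All 20 cytosolic members had a lower mean log2(CPM + 1) in DTC, as did 10 of 16 mitochondrial members, while 37.4% of all 18701 genes tested did. The median log2 difference was -1.23 over cytosolic members and -0.71 over mitochondrial members (-0.74 without Lars2), beside 0.59 over all genes. With median-of-ratios scaling these medians were -1.60, -1.06 and 0.28, and with quantile normalization -0.97, -1.18 and -0.14, so both compartments lay under the median of all genes with each scaling. Of the 33 members other than Farsb, Gars and Lars2, 10 were called lower and 1 higher by limma, beside 8.87% and 34.2% of all genes. On the recovered reads edgeR called 19 of the 33 lower and DESeq2 20, and both called 0 higher. Of all 18701 genes, edgeR called 3095 lower and 4558 higher, and DESeq2 called 2945 lower and 5142 higher. The family was selected with this contrast in view, so nothing is read from the count.

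The largest of these falls in the cytosol were in enzymes for threonine, isoleucine and asparagine. Asparaginyl Nars had 180.4, 314 and 92.0 CPM in the DTC libraries, 287, 356 and 289.7 CPM in the mCherryHigh libraries, and 521, 597 and 458.5 CPM in the mCherryLow libraries. DTC and mCherryLow did not overlap, and Nars fell by 1.58 ± 0.43 on the log2 scale (SE, limma adjusted p = 0.0110). Threonyl Tars had 69.3, 196 and 28.1 CPM in DTC, 304.5, 139 and 60.5 CPM in mCherryHigh, and 316, 265 and 184 CPM in mCherryLow. DTC 2 overlapped the lowest mCherryLow library, and Tars fell by 1.76 ± 0.58 (adjusted p = 0.0278). Isoleucyl Iars, of the multisynthetase complex, had 35.0, 91.6 and 23.8 CPM in DTC, 228, 107 and 87.1 CPM in mCherryHigh, and 115.5, 202 and 111 CPM in mCherryLow. Its DTC values lay under all mCherryLow values, and it fell by 1.67 ± 0.50 (adjusted p = 0.0185). Tars and Iars are among the genes whose promoters hold both motifs.

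The complex members Eprs and Rars fell as well. Eprs, which carries the glutamyl and prolyl activities in a single protein, had 202, 254 and 88.8 CPM in DTC, 474, 328.5 and 236 CPM in mCherryHigh, and 331, 587 and 369 CPM in mCherryLow. Arginyl Rars had 76.1, 188 and 31.4 CPM in DTC, 272, 178 and 172 CPM in mCherryHigh, and 193.5, 283 and 213.5 CPM in mCherryLow. In both genes all DTC values lay under all mCherryLow values, with the closest pair in Rars, and mCherryHigh overlapped mCherryLow. Eprs fell by 1.32 ± 0.43 (limma adjusted p = 0.0267) and Rars by 1.55 ± 0.54 (adjusted p = 0.0360). Aspartyl Dars, the other called member of the complex, fell by 1.30 ± 0.47 (adjusted p = 0.0424), with DTC 2 at 159 CPM above mCherryLow 6 at 149 CPM. Dars passed in 8 of 17 alternatives. Of the 8 members of the complex, limma called 4 lower and 0 higher, beside 8.87% and 34.2% of all genes. The other 4 (Kars, Lars, Mars and Qars) had differences of -0.60, -1.18, -1.48 and -0.26, and of these Lars and Mars were called lower by edgeR and by DESeq2.

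Outside the complex, alanyl Aars and seryl Sars fell. Aars had 212, 207 and 101 CPM in DTC, 238, 417 and 291.5 CPM in mCherryHigh, and 406, 356 and 385 CPM in mCherryLow. Sars had 152, 171 and 79.0 CPM in DTC, 295, 246 and 204 CPM in mCherryHigh, and 266, 325 and 240.2 CPM in mCherryLow. For both, every DTC library lay under every library of the other 2 groups. Aars fell by 1.21 ± 0.37 (limma adjusted p = 0.0191) and Sars by 1.11 ± 0.37 (adjusted p = 0.0320). The other 5 cytosolic members outside the complex and besides Farsa had differences between -1.25 (Cars) and -0.39 (Wars), and none passed by limma, while edgeR and DESeq2 both called Cars, Hars and Yars lower.

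Mitochondrial members went in both directions. Isoleucyl Iars2 had 55.6, 48.7 and 41.1 CPM in DTC, 87.0, 97.1 and 74.8 CPM in mCherryHigh, and 131, 152 and 87.2 CPM in mCherryLow. Its DTC values lay under all others, and it fell by 1.30 ± 0.37 against mCherryLow (limma adjusted p = 0.0150). Phenylalanyl Fars2 had 3.81, 10.2 and 14.1 CPM in DTC, 35.7, 7.35 and 18.4 CPM in mCherryHigh, and 26.8, 25.4 and 29.4 CPM in mCherryLow. It fell by 1.59 ± 0.56 without overlap (adjusted p = 0.0370), at counts of few reads. Tryptophanyl Wars2 had 51.8, 45.3 and 71.4 CPM in DTC, 35.7, 14.3 and 14.7 CPM in mCherryHigh, and 21.9, 24.6 and 15.5 CPM in mCherryLow. All DTC values lay above all others, Wars2 rose by 1.40 ± 0.43 (adjusted p = 0.0200), and unlike most members it was highest in DTC 3. This call held in 10 of 17 alternatives and was lost with edgeR, DESeq2, quantile normalization and median-of-ratios scaling (adjusted p between 0.0127 and 0.135 over the alternatives). The other 12 mitochondrial members besides Lars2 had differences between -1.47 (Aars2) and 1.04 (Hars2), and none passed by limma. Of these, DESeq2 called Aars2, Nars2, Rars2 and Tars2 lower, and edgeR Nars2, Rars2 and Tars2. Iars2 shares 22.7% of its transcript windows with other genes, mostly Rab3gap2, Aars 13.8%, mostly Exosc6, and Fars2 8.85%, mostly Nrn1.

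DTC 3 gave the lowest DTC value for 19 of the 20 cytosolic members, and DTC 2 gave the highest for 18. Against the mean of mCherryLow the median cytosolic difference was -0.87 in DTC 1, -0.45 in DTC 2 and -2.26 in DTC 3. In DTC 1, 17 of 20 cytosolic members lay under all mCherryLow libraries, in DTC 2 it was 10, and in DTC 3 all 20. The 20 include Farsb and Gars, and the share over all genes was not taken, so nothing is read from these counts. Without DTC 3, Nars, Aars, Iars2 and Fars2 were called lower and 0 of the 33 were called higher. On the log2(CPM + 1) scale 19 of 20 cytosolic members then had a lower mean. The medians were -0.81 over cytosolic and -0.27 over mitochondrial members. Of the 33 members, 11 were called with all libraries, 4 without DTC 3, 3 without DTC 1, 6 without mCherryLow 1 and 3 without mCherryLow 5. The difference without DTC 3 was -1.09 for Tars, -0.92 for Rars and -1.46 for Gars, and without DTC 2 it was -2.47 for Tars and -2.19 for Rars.

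Grouped by promoter motif, the 5 cytosolic genes with the response element core had a median DTC difference from mCherryLow of -1.67 (range -2.08 to -0.85), and the 8 without it had -1.20 (range -2.27 to -0.26). For mCherryHigh against mCherryLow the medians were -0.31 with the core and -0.55 without it. The ranges of the genes with and without the core overlapped in both comparisons. Gars is among the genes with the core and Farsb among those without it, and each gives the lower end of its range. The family was selected on both, so nothing is read from these medians and ranges.

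**Figure D4:**
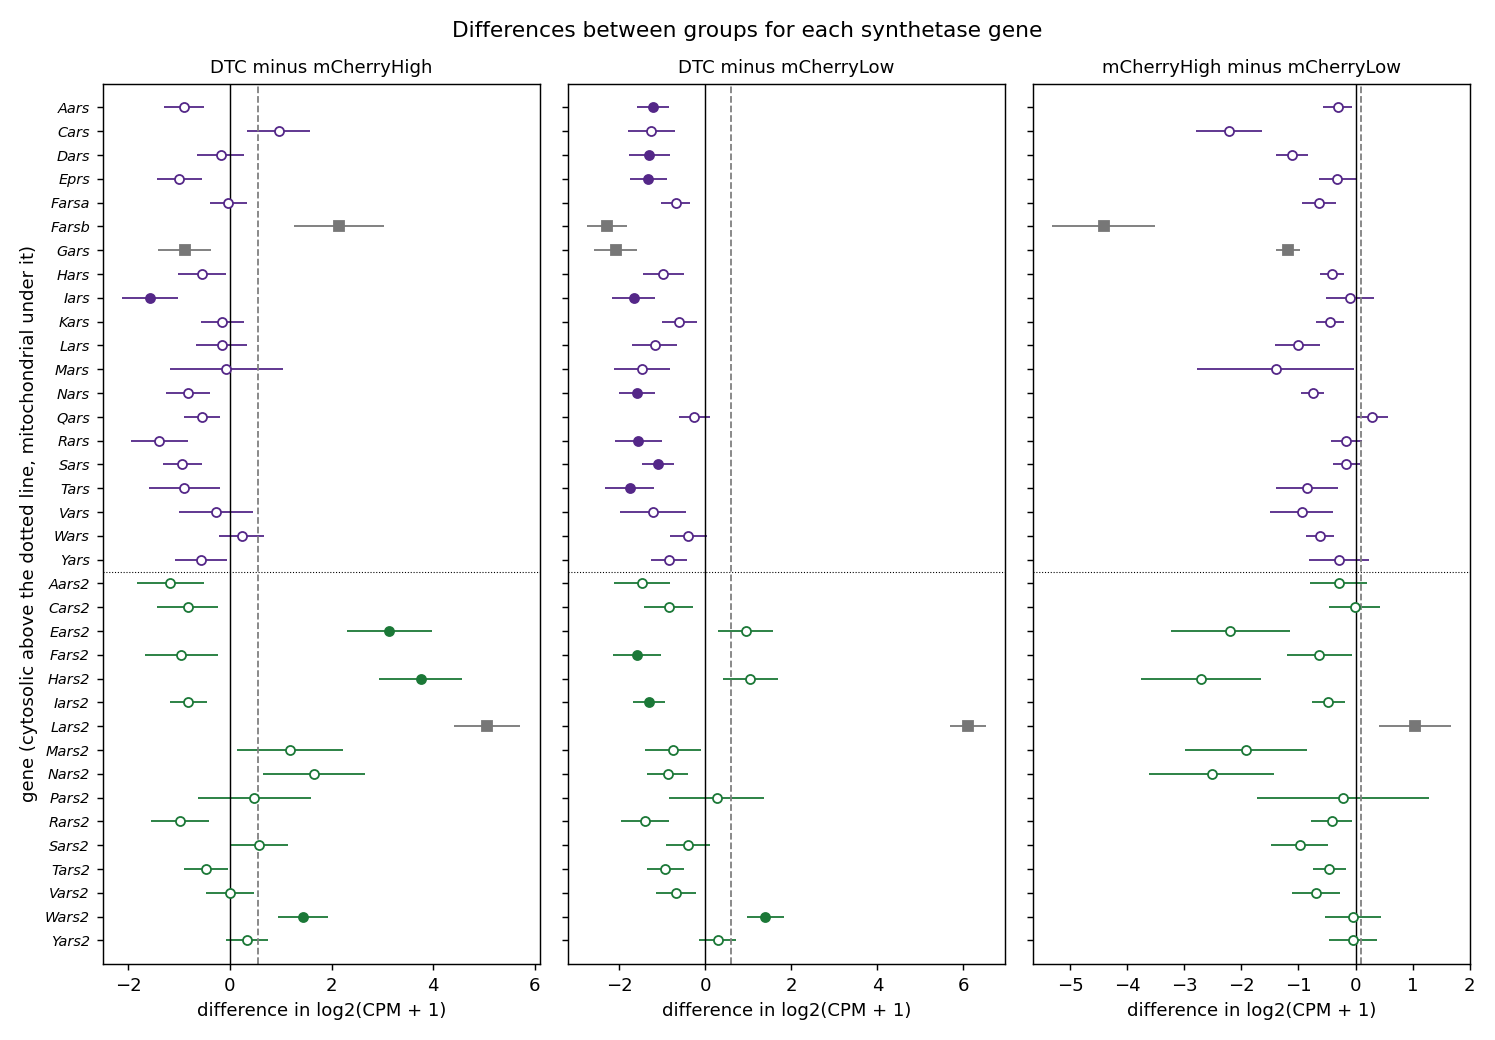
Differences in log2(CPM + 1) with SE for each member in the 3 comparisons, cytosolic genes in purple and mitochondrial genes in green. Filled circles passed an adjusted p of 0.05 by limma, grey squares are Farsb, Gars and Lars2 (not tested), the solid line is 0 and the dashed line the median of all genes. All cytosolic points lie left of 0 for DTC minus mCherryLow, and no circle is filled for mCherryHigh minus mCherryLow.

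DTC against mCherryHigh compares cells of different times. Both had a lower mean summed cytosolic level than mCherryLow, with Farsb and Gars included. It shares its libraries with the comparisons above, so its values are given for themselves. Of the 33 members other than Farsb, Gars and Lars2, 1 was called lower and 3 higher by limma, beside 7.19% and 23.0% of the 19700 genes tested. All 3 that rose by limma are mitochondrial (Hars2, Ears2 and Wars2), and the member that fell is the cytosolic Iars. On the recovered reads edgeR and DESeq2 each called 3 of the 33 lower (Iars, Sars and the mitochondrial Iars2). Each called 1 higher (Hars2), and the calls of Ears2 and Wars2 were lost with both. Of all 19700 genes, edgeR called 2198 lower and 3091 higher, and DESeq2 called 2117 lower and 4196 higher. The median log2 difference was -0.55 over cytosolic members and 0.41 over mitochondrial members, beside 0.55 over all genes. With quantile normalization the medians were -0.36, -0.52 and -0.10, so the direction over mitochondrial members depended on the scaling.

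Hars2 had 60.1, 64.3 and 37.9 CPM in DTC, against 0, 9.49 and 5.01 CPM in mCherryHigh, without overlap. It rose by 3.76 ± 0.81 (limma adjusted p = 0.00743) and passed in 17 of 17 alternatives, with a difference of 2.76 without mCherryHigh 1 and 4.45 without mCherryHigh 5. Hars2 lies beside Hars and shares some transcript windows with it. Ears2 had 50.2, 36.5 and 29.2 CPM in DTC, against 1.55, 17.4 and 0.818 CPM in mCherryHigh, and rose by 3.14 ± 0.83 (adjusted p = 0.0168). It passed in 13 of 17 alternatives, with a difference of 4.17 without mCherryHigh 5 and 2.50 without mCherryHigh 6. In both genes the DTC values overlapped those of mCherryLow, and the difference between DTC and mCherryLow was not called (adjusted p = 0.204 for Hars2 and 0.253 for Ears2, limma).

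Wars2 rose by 1.44 ± 0.49 (limma adjusted p = 0.0459) and Iars fell by 1.57 ± 0.54 (adjusted p = 0.0482) in DTC against mCherryHigh. They passed in only 5 and 6 of 17 alternatives. Without DTC 3 the median difference was -0.12 over cytosolic members and 0.55 over mitochondrial members, and Hars2 and Ears2 were called. Of the 33 members, 4 were called with all libraries, 2 without DTC 3, 1 without DTC 1 and 2 without mCherryHigh 5. Members other than these, Farsb and Lars2 had differences between -1.39 (Rars) and 1.65 (Nars2), and none passed by limma. Of them, edgeR and DESeq2 both called Sars and Iars2 lower.

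Genes that work with the synthetases were compared in 4 lists. In mCherryHigh against mCherryLow limma and edgeR called 0 of all 15437 genes, so none of these lists held a call by them. Among the 4 genes of each list with the smallest limma p, DESeq2 called some lower, beside 0.641% of all genes. These were Mthfd2 (DESeq2 adjusted p = 0.00184), Ctu2 (0.00591), 6530401N04Rik (0.0249) and Nsun2 (0.0361). In the list of scaffolds and partners, which hold the complex together or correct and convert charged tRNAs, 0 of 14 genes were called for DTC against mCherryLow, while against mCherryHigh 1 rose, 6530401N04Rik (the gene of the D-aminoacyl-tRNA deacylase Dtd2). It had 28.2, 65.8 and 58.4 CPM in DTC and 17.1, 16.4 and 19.0 CPM in mCherryHigh, without overlap, and a difference of 1.40 ± 0.48 (limma adjusted p = 0.0468). Among elongation factors, which take the charged tRNA to the ribosome and move it along, the genes called by limma were all higher, as were most genes called in these comparisons. Eef1a1 averaged 959.8 ± 101 CPM in DTC, 355 ± 45.6 in mCherryHigh and 389 ± 34.9 in mCherryLow (SD, n = 3 each), and rose by 1.30 ± 0.31 against mCherryLow (adjusted p = 0.00545) and by 1.43 ± 0.31 against mCherryHigh (adjusted p = 0.00782). Eef1g rose by 1.81 ± 0.46 (adjusted p = 0.00857) and 1.93 ± 0.45 (adjusted p = 0.0103) in these comparisons. In all, 2 of 9 elongation genes were called higher against mCherryLow and 3 against mCherryHigh, the third being the mitochondrial Gfm2, and 0 were called lower, beside 34.2% and 23.0% of all genes called higher, so these counts are no result about the list.

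Of 29 genes of tRNA processing, modification and export, 1 was called higher and 2 lower by limma in DTC against mCherryLow, beside 34.2% and 8.87% of all genes. Hsd17b10, part of mitochondrial RNase P, fell by 1.36 ± 0.38 (limma adjusted p = 0.0141) and Elac2, which trims the other end of tRNA precursors, by 1.66 ± 0.49 (adjusted p = 0.0178). Rpp25, a protein of the nuclear RNase P, was called higher at very low levels, with 9.13, 1.95 and 6.49 CPM in DTC and 2.44, 0 and 0.0843 CPM in mCherryLow. Its groups overlapped, and the difference was 1.97 ± 0.66 (limma adjusted p = 0.0312, and 0.0102 to 0.882 over the alternatives). Against mCherryHigh 3 were called higher, beside 23.0% of all genes, with Ctu2 of wobble uridine thiolation (3.11 ± 0.81) and the tRNA exporter Xpot (1.31 ± 0.43) among them, and 1, Hsd17b10, was called lower (-1.28 ± 0.43), beside 7.19%.

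The list of ATF4 and amino acid response genes, 31 in all, had 1 gene called higher and 6 lower by limma in DTC against mCherryLow, beside 34.2% and 8.87% of all genes. Eif4ebp1, a brake on cap-dependent translation, had 59.4, 75.0 and 31.4 CPM in DTC, 118, 82.6 and 111 CPM in mCherryHigh, and 179.9, 176 and 189 CPM in mCherryLow. Its DTC values lay under all others, and it fell by 1.78 ± 0.39 (limma adjusted p = 0.00384). Aldh18a1, which makes the precursor of proline, fell by 1.43 ± 0.35 (adjusted p = 0.00652), and Slc3a2, the heavy chain of amino acid exchangers, by 1.32 ± 0.34 (adjusted p = 0.00825). The transcription factor Atf5 rose by 2.32 ± 0.63 (adjusted p = 0.0117). Against mCherryHigh 3 of the 31 were called higher, Atf5 (2.91 ± 0.72) and the leucine transporter Slc7a5 (3.81 ± 1.05) among them, and 3 lower, with Slc3a2 (-1.30 ± 0.34) and Vldlr (-1.22 ± 0.36), beside 23.0% and 7.19% of all genes. Slc7a5 had 50.2, 123 and 20.6 CPM in DTC and 0, 21.1 and 1.23 CPM in mCherryHigh, with overlap. Its limma adjusted p was 0.0200, and 0.00392 to 0.109 over the alternatives. For mCherryHigh against mCherryLow the smallest p in the list was that of Mthfd2, of mitochondrial folate metabolism, with 1.55, 14.1 and 18.9 CPM in mCherryHigh and 79.0, 74.7 and 140.5 CPM in mCherryLow. Its groups did not overlap, and the log2 difference was -3.37 ± 0.77 (limma adjusted p = 0.444, DESeq2 adjusted p = 0.00184).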

How the data were processed

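The authors deposited CPM values (reads after scaling to a common total) for 24012 genes in 9 libraries, made with SMART-seq v4 and Nextera XT per the labels' protocols. Reads were mapped to mm9, per the submitters' processing notes, while aligner and counter are not given in the sources used. All CPM values (100%) were whole multiples of 1 read within 0.01 read, so reads and library totals were recovered, and 0 columns were left unmatched. The test was limma 3.58.1 (R 4.3.3), two-sided, with a mean-variance trend, on log2 of CPM plus a pseudocount of 1. It took every gene that reached 1 CPM in 3 or more of the 6 libraries compared, and p-values were adjusted over all of these by Benjamini-Hochberg, with a threshold of 0.05. Fold changes on that scale understate changes of low genes. Alternatives were DESeq2 1.42.0 and edgeR 4.0.16 fitted to recovered reads, other scalings, filters and pseudocounts, a block on library numbers, code series as a term and leaving out each library. The procedure was tested on simulated data. The members, lists and tests were chosen with earlier results of these data known. Values of every library are given for Farsb, Gars and Lars2, the 12 other called members with the smallest adjusted p, and the 3 cytosolic and 3 mitochondrial members with the largest mCherryHigh differences. Of each list up to 4 genes by p are named, most by their difference alone. The plain values of Farsa were added after they were seen, and a few results are left out here. Transcript lengths and shared 50-base windows came from GENCODE transcripts of a later build than mm9, so no gene coordinates are given, and promoters came from RefSeq. Strand-specific counting is not stated, so reads of overlapping genes cannot be told apart.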

Additional observations from a re-analysis of the deposited data

How the results depend on the processing

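In mCherryHigh against mCherryLow, 0 of the 33 members other than Farsb, Gars and Lars2 were called in any of the 20 alternatives. Whether library numbers pair the samples could not be settled. Deviations from the group means correlated at -0.20, -0.02 and 0.27 in same-numbered mCherryHigh and mCherryLow libraries. In differently numbered libraries they correlated at -0.44 to 0.33. With 3 libraries per group such deviations depend on each other, so these values cannot decide it. With the replicate block 0 members were called. No paired analysis was possible for DTC because it shares only the number 1 with the other groups. Calls in the DTC comparisons are counted over the same 33 members unless stated, because the family was selected on Farsb, Gars and Lars2. For DTC against mCherryLow, 11 of the 33 were called, against 4 with quantile normalization, 19 with median-of-ratios scaling and 5 with no mean-variance trend. It was 19 with edgeR, 20 with DESeq2, and 3 to 16 when each library was left out. Over all 36 members, Farsb, Gars and Lars2 included, the fits passed 14 members, and nothing is read from the added 3. That count was 7 with quantile normalization, 22 with median-of-ratios scaling and 8 with no mean-variance trend. It was 22 with edgeR, 23 with DESeq2, and 6 to 19 when each library was left out. For DTC against mCherryHigh, 4 of the 33 were called, against 2 with a pseudocount of 0.1, 2 with no filter, 1 with quantile normalization and 2 with no trend. With edgeR and with DESeq2 it was 4, and 1 to 5 when each library was left out. The median cytosolic minus the median mitochondrial difference was -0.52 for DTC against mCherryLow (0.21 with quantile normalization, -0.85 to -0.47 over left-out libraries), -0.96 for DTC against mCherryHigh (0.16 and -1.17 to -0.39), and -0.17 for mCherryHigh against mCherryLow (-0.20 to 0.11). Leaving Lars2, Gm10800, Gm10801 and Malat1 out of the totals, chosen after seeing the data, gave 9 and 3 calls among the 33 in the DTC comparisons. Calls over all genes in DTC against mCherryLow were 6405 higher and 1659 lower, against 2264 and 2036 with quantile normalization, 5628 and 3049 with median-of-ratios scaling, and 4558 and 3095 with edgeR. For DTC against mCherryHigh they were 4532 and 1417, against 1615 and 1535 with quantile normalization and 3091 and 2198 with edgeR. The cause was not tested. Over all 36 members, Farsb, Gars and Lars2 included, single alternatives lost 59 calls of DTC against mCherryLow and 27 of DTC against mCherryHigh. They gained 39 and 11, and no called member changed direction. Uncalled members changed sign 23 times for mCherryHigh against mCherryLow, 10 times for DTC against mCherryLow and 37 times for DTC against mCherryHigh. Members with under about 20 CPM rest on few reads in mCherryHigh 1 and the DTC libraries, where the depth limits them most.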
